A study of Mus musculus with 8 samples.

Results

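Romidepsin, an inhibitor of histone deacetylases, was given to MBL2 cells either alone or on top of talazoparib, an inhibitor of the PARP enzymes of DNA repair, and its average effect over both settings was measured by RNA sequencing. The average effect sets the 4 libraries that received romidepsin (2 of romidepsin alone, 2 of the combination of both drugs) against the 4 that did not (2 untreated controls, 2 of talazoparib alone), and so uses 8 of the 8 libraries of the series and all genes of the count table. MBL2 is an established mouse lymphoma line of the C57BL/6 strain, induced by Moloney MuLV and labelled as T-cell. All groups were grown in the same RPMI-based medium and harvested 24 h after a single dose, and the controls are labelled as untreated. The sources used here name no vehicle and no dose. All libraries come from this 1 line. Whether the 2 libraries of a group stem from separate cultures is not stated, and the p-values then cover only the spread between these libraries, which may be technical. Total counts were 28419156 to 38913292 reads per library, and 11934 of the 12260 genes listed had enough reads to be tested. T-cell markers were expressed in every library: summed over 10 of 12 marker genes, the level was 3759 to 4434 CPM (reads relative to the TMM-scaled library total). Single markers ran from 1.56 to 1420 CPM, so the sum does not show that each was well expressed. The coreceptor genes Cd8a and Cd8b1 were not among the genes tested.

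Histone deacetylases remove acetyl groups from the lysines of histone tails, and class I enzymes do so inside corepressor complexes that keep genes at low activity. Romidepsin is a bacterial cyclic depsipeptide whose disulfide is reduced inside the cell, and the freed thiol binds the zinc ion in the active site of class I deacetylases. It is used in the clinic against cutaneous and peripheral T-cell lymphoma. Genes that often rise under deacetylase inhibitors in other cells include the linker histone gene H1f0 and Cdkn1a, which encodes the cell cycle inhibitor p21.

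Over both settings the effect of romidepsin at this dose and time was small among the genes listed. Each listed gene has at least 1 read in every library, so genes silent in 1 or more libraries could not be seen. Of 11934 genes tested, 1 rose (0.00838%) and 2 fell (0.0168%), together 0.0251%, at an adjusted p under 0.05 (the quasi-likelihood test of edgeR, Benjamini-Hochberg adjusted, as for all adjusted p-values below unless DESeq2 is named). Cd74 was the gene that rose, and Fam134c and Tmem254a fell. DESeq2 called 81 genes (0.661%), 65 higher (0.53%) and 16 lower (0.131%), all 3 of the edgeR calls among them, and an unadjusted p under 0.05 was reached by 876 genes (7.34%). The average romidepsin effect had a median size of 0.0819 on the log2 scale over all genes, against 0.210 for the average effect of talazoparib in the same 8 libraries. A difference over 2-fold was seen in 86 genes for romidepsin and in 551 for talazoparib, and talazoparib's average effect passed the threshold in 3605 genes (30.2%). The median SE of the log2 effect was 0.0968, and 52.7% of genes had an SE under 0.1.

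The effect leaned upwards. Of the 876 genes with an unadjusted p under 0.05, 625 (5.24% of those tested) lay higher with romidepsin and 251 (2.1%) lower. In a second, simpler count, both romidepsin libraries lay above both of their own controls in each setting, with and without talazoparib, for 699 genes (5.86%) and below them for 455 (3.81%), together 9.67%. The libraries stood apart in opposite directions in the 2 settings for 294 genes (2.46%). The lean was strongest among weakly expressed genes. The median log2 effect was 0.115 for the 861 genes under 1 CPM, 0.0625 from 1 to 10 CPM, -0.00903 from 10 to 100 CPM and -0.0171 for the 2412 genes over 100 CPM. Among genes of 1 to 10 CPM, 10.1% stood apart upwards in both settings and 2.04% downwards. The shares were 5.29% and 4.14% for the 6504 genes of 10 to 100 CPM, and 3.07% and 5.14% over 100 CPM. The gene groups below differ in level, and the part of level in their values was not tested.

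The 2 settings share no library, so each gives a separate measurement of the effect. When each was fitted alone, the log2 effects of 11734 genes tested in both correlated weakly across genes, which are not independent replicates (Pearson's r = 0.265, Spearman's rho = 0.248). The correlation differed with level, and for the 2412 genes over 100 CPM Pearson's r was 0.0195 and Spearman's rho 0.192. Of 459 genes (3.91%) higher at an unadjusted p under 0.05 without talazoparib, 81.5% also lay higher when romidepsin was added to talazoparib, and their median log2 effect was 0.457 in the first setting and 0.223 in the second. Of 236 genes (2.01%) higher with talazoparib, 86.9% lay higher without it, with medians of 0.607 and 0.290. Over all genes, 56.2% of those higher without talazoparib and 61.3% of those higher with it had the same sign in the other setting. For lower genes the shares were 72.3% of 202 genes (1.72% of those tested) and 76.1% of 67 (0.571%), against 62.0% and 56.8% over all genes. Among the few genes with an unadjusted p under 0.001, 5 of 8 higher and 5 of 7 lower genes without talazoparib, and 3 of 6 and 3 of 6 with it, had the same sign in the other setting.

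**Figure D1:**
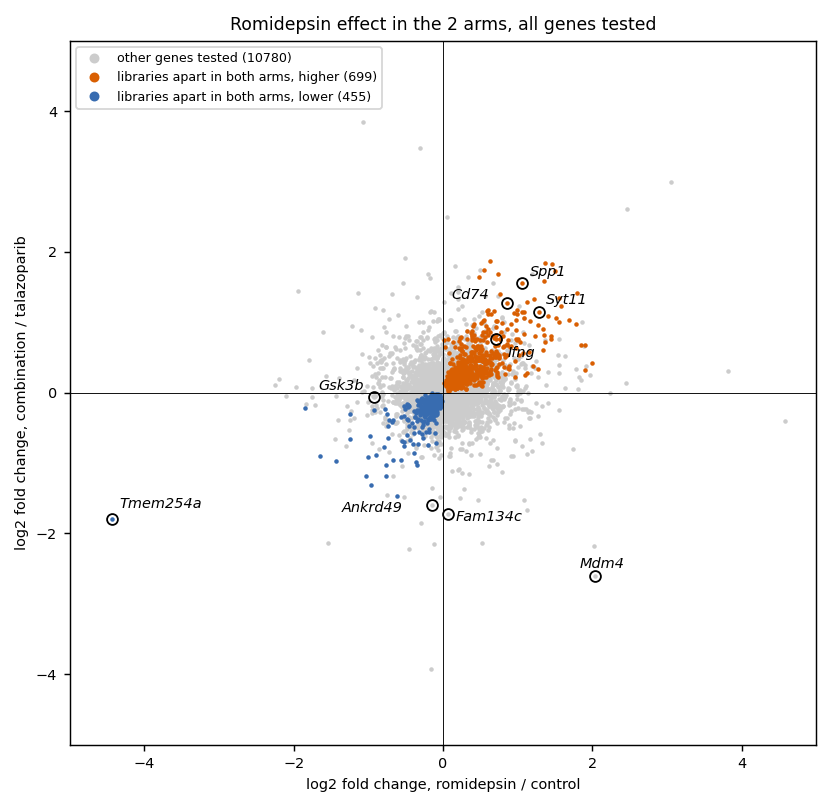
Log2 fold change of each of the 11934 genes tested, romidepsin against control on the horizontal axis and combination against talazoparib on the vertical axis. The 699 orange genes had both romidepsin libraries above both controls in each setting and the 455 blue genes below them. Cd74, Spp1, Syt11 and Ifng lie in the upper right, Tmem254a in the lower left, and Mdm4 in the lower right, where the settings differ in sign.

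Cd74 (gene ID 16149, chromosome 18, 60803849 to 60812652 on GRCm38, the build called mm10) encodes the invariant chain, which holds MHC class II molecules on their way to the endosome and on the cell surface serves as the receptor for the cytokine MIF. Its level was 17.1 and 12.7 CPM in the controls, 25.4 and 28.5 under romidepsin, 37.7 and 34.3 under talazoparib and 81.9 and 92.9 under both drugs. Romidepsin libraries were higher than their controls in both settings with no overlap, and the combination was the highest of the 4 groups. The average rise was 2.10-fold, log2 1.07 (SE 0.11, adjusted p = 0.0440), with 0.86 without talazoparib and 1.28 with it. Neither setting passed alone (adjusted p = 0.940 and 0.0657), and the settings were not told apart by the interaction (log2 0.42, SE 0.21, adjusted p = 0.999). The call was lost in 6 of the 8 fits that each left out 1 library, with the log2 effect staying between 0.96 and 1.18.

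Tmem254a (gene ID 66039, chromosome 14, 25923298 to 25927672), a small transmembrane protein of unknown function, was the deepest fall. Its level was 3.53 and 4.09 CPM in the controls, 0.183 and 0.163 under romidepsin, 0.346 and 0.434 under talazoparib and 0.0602 and 0.163 under both drugs. The control libraries stood far above all 6 others, talazoparib alone was already low, and romidepsin libraries were below their controls in both settings. The setting with talazoparib rests on few reads, since all its levels lay under 1 CPM. The average log2 effect was -3.11 (SE 0.33, adjusted p = 0.0440), made of -4.44 without talazoparib (adjusted p = 0.0196) and -1.79 with it (adjusted p = 0.911). This fall is also uncertain, since RefSeq lists the copies Tmem254b and Tmem254c on the same chromosome, and reads may be split among them. Tmem254c was at 5.79 and 4.42 CPM in the controls, 9.58 and 9.35 under romidepsin, 10.6 and 12.01 under talazoparib and 9.17 and 10.8 under both drugs, lowest in the controls. Summed over both copies the level was 9.32 and 8.50 CPM in the controls, 9.76 and 9.52 under romidepsin, 10.9 and 12.4 under talazoparib and 9.23 and 10.9 under both drugs, so Tmem254a differed far more between the groups than the sum did. The call was lost without any 1 of the 8 libraries (log2 effect -3.53 to -2.84).

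Fam134c (gene ID 67998, chromosome 11, 101096322 to 101119841; Retreg3 in RefSeq) encodes a reticulon-type protein of the endoplasmic reticulum that takes part in its turnover by autophagy. Its level was 88.7 and 88.0 CPM in the controls, 86.7 and 98.7 under romidepsin, 103 and 97.9 under talazoparib and 33.1 and 27.7 under both drugs. Only the combination libraries were low, and romidepsin alone overlapped the control. The average fall was log2 -0.82 (SE 0.078, adjusted p = 0.0440). It was made of log2 0.07 without talazoparib and -1.72 with it (adjusted p = 0.00347), and the settings differed (interaction log2 -1.79, SE 0.16, adjusted p = 0.0159). The values are gene-level counts as deposited, and the part of read assignment in them was not tested. The call on the average was lost in 7 of the 8 fits that left out 1 library.

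**Figure D2:**
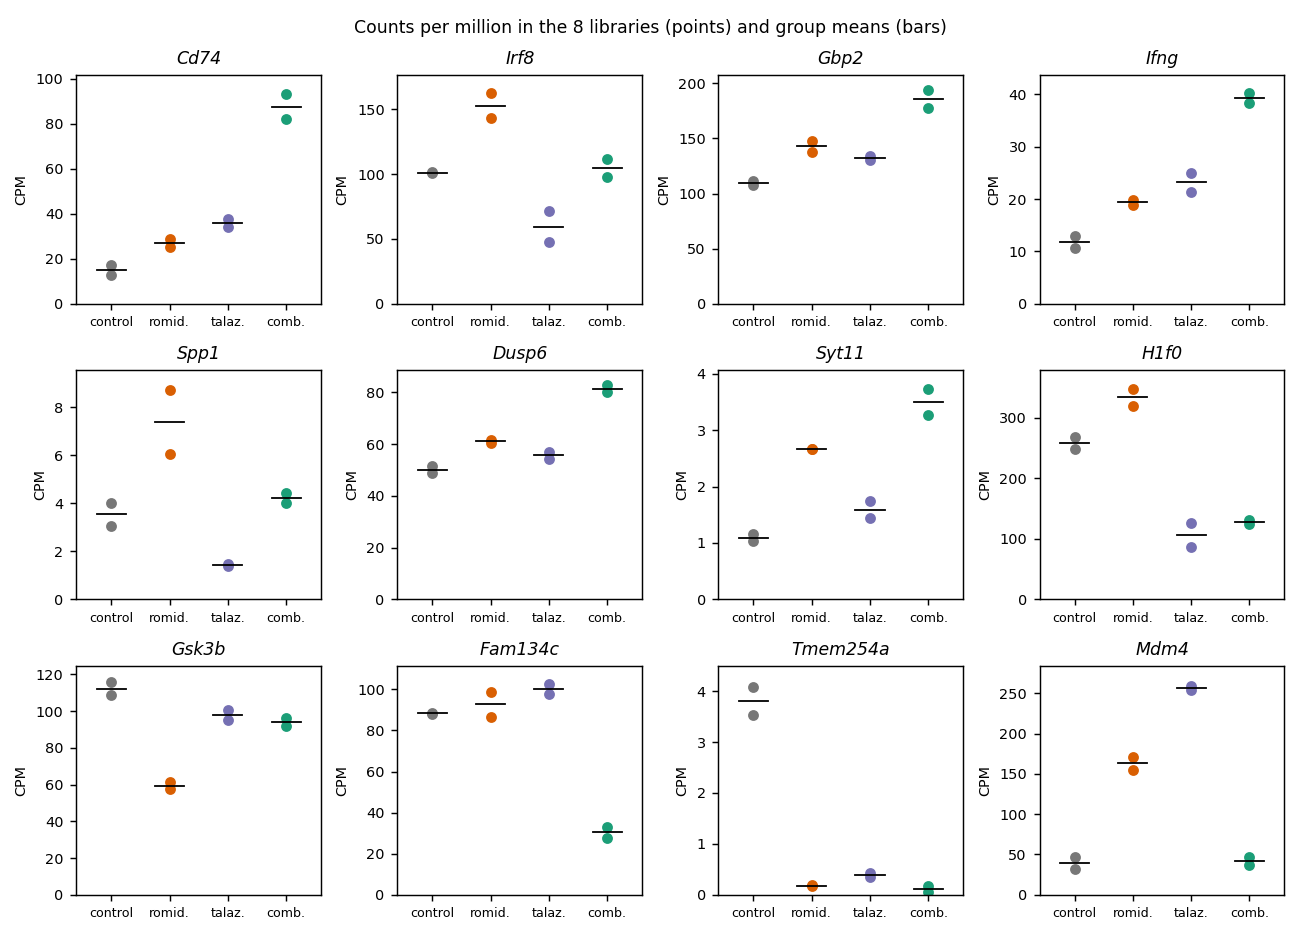
Level in CPM of 12 genes in each library (points), with the mean of the 2 libraries per group (bars), for control, romidepsin, talazoparib and the combination. Cd74, Irf8, Gbp2, Ifng, Spp1, Dusp6 and Syt11 were higher with romidepsin in both settings, Gsk3b was lower without talazoparib, Fam134c was low in the combination, Tmem254a was high in control, and Mdm4 was higher with romidepsin alone and lower with the combination than with talazoparib.

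The effect of romidepsin differed between the 2 settings for a few genes. The interaction was past the threshold for 2 genes (0.0168%), both lower, Fam134c and Mdm4, and had an unadjusted p under 0.05 for 154 (1.29%). Mdm4 (gene ID 17248, chromosome 1, 132986105 to 133030587) encodes an inhibitor of p53. Its level was 32.2 and 47.4 CPM in the controls, 171 and 155 under romidepsin, 254 and 259 under talazoparib and 46.7 and 37.4 under both drugs. Either drug alone gave higher levels than control, and adding romidepsin to talazoparib gave levels within the range of the controls. Mdm4 overlaps 2 predicted genes, Gm29257 and Gm41953, in RefSeq, and how the authors' counting assigned reads there was not tested. The romidepsin effect was log2 2.04 without talazoparib (adjusted p = 0.0196) and -2.61 with it (adjusted p = 0.00352), a difference of -4.64 (SE 0.26, adjusted p = 0.00105), and the average was -0.29 (adjusted p = 0.680).

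Within single settings, 3 genes passed without talazoparib and 3 with it (0.0251% each). Without talazoparib these were Mdm4, Tmem254a and Gsk3b, the kinase gene of the beta-catenin destruction complex, with 109 and 116 CPM in the controls, 61.2 and 57.3 under romidepsin, 100.3 and 95.3 under talazoparib and 96.3 and 91.8 under both drugs. Gsk3b fell by 0.92 on the log2 scale without talazoparib (adjusted p = 0.0196), and its libraries overlapped with it (log2 -0.057). With talazoparib the calls were Mdm4, Fam134c and Rapgef3, which encodes the cyclic AMP-activated exchange factor EPAC1. Rapgef3 was at 40.0 and 41.6 CPM in the controls, 39.2 and 42.8 under romidepsin, 29.4 and 29.1 under talazoparib and 51.9 and 54.0 under both drugs, with a log2 effect of 0.0072 without talazoparib and a rise of 0.86 with it (adjusted p = 0.0489). Their differences between settings did not pass (Gsk3b interaction log2 0.86, adjusted p = 0.389; Rapgef3 0.85, adjusted p = 0.466). DESeq2 called 8 genes without talazoparib (0.0653%), 26 with it (0.216%) and 7 interactions (0.0571%), Gsk3b and Rapgef3 among the latter. The authors' deposited table lists 11 genes at an adjusted p under 0.05 for romidepsin against control and 25 for the combination against talazoparib.

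Below the 3 calls stood genes at adjusted p-values from 0.1002 upwards, most of them with the same direction in both settings. They are named here after their values were seen. Of the 25 genes with the smallest p-values, 21 were higher with romidepsin and 20 of these had no overlap in either setting. Of DESeq2's 81 calls, 72 had libraries apart in both settings in the same direction, 62 higher and 10 lower, against 9.67% over all genes. These genes were called on the same libraries, so the count is a description. Ifng (gene ID 15978, chromosome 10, 118441046 to 118445894), the gene of interferon gamma, was at 13.0 and 10.7 CPM in the controls, 19.8 and 18.9 under romidepsin, 24.98 and 21.4 under talazoparib and 38.3 and 40.2 under both drugs. Every romidepsin library was higher than its controls, by log2 0.71 without talazoparib and 0.76 with it, and the average of 0.73 (SE 0.094) had an adjusted p of 0.1002 by edgeR and 4.94e-07 by DESeq2. Spp1, which encodes the secreted phosphoprotein osteopontin, was at 3.07 and 4.02 CPM in the controls, 8.74 and 6.06 under romidepsin, 1.45 and 1.40 under talazoparib and 4.42 and 4.00 under both drugs, and its average log2 effect was 1.31 (SE 0.18, adjusted p = 0.1002). Talazoparib libraries were the lowest for Spp1, and romidepsin libraries were higher within each setting. Syt11, a synaptotagmin of vesicle traffic, was at 1.16 and 1.03 CPM in the controls, 2.67 and 2.66 under romidepsin, 1.45 and 1.74 under talazoparib and 3.28 and 3.74 under both drugs, log2 1.21 (SE 0.17, adjusted p = 0.1002).

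Smaller but equally regular differences were seen for Tsc22d1, a leucine zipper gene known as a TGF-beta target (log2 0.48), Ckb, the brain-type creatine kinase (0.49), and Arl4c, a small GTPase (0.62). For Ggt7, of the gamma-glutamyltransferase family, the effect was 1.27. Their adjusted p was 0.1002, 0.1002, 0.166 and 0.125, and all 4 had libraries apart in both settings. On the lower side Lamb1, a laminin chain, was at 36.7 and 37.8 CPM in the controls, 27.3 and 26.3 under romidepsin, 27.3 and 32.1 under talazoparib and 22.4 and 23.2 under both drugs (log2 -0.43, adjusted p = 0.208), and Fech, the ferrochelatase of haem synthesis, at 50.5 and 48.8 CPM in the controls, 45.2 and 30.5 under romidepsin, 57.6 and 57.0 under talazoparib and 32.3 and 30.7 under both drugs (log2 -0.63, adjusted p = 0.211). Both had romidepsin libraries below their controls in each setting. Ankrd49 lay lower mainly with talazoparib, at 18.5 and 18.9 CPM in the controls, 18.8 and 14.9 under romidepsin, 18.1 and 25.1 under talazoparib and 7.52 and 6.76 under both drugs, and its log2 effects were -0.15 and -1.60.

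Interferon-stimulated genes mostly lay higher with romidepsin. Interferons switch on defence genes, interferon gamma largely through GAS elements in their promoters and type I interferon largely through ISRE elements. Of 36 interferon-stimulated genes tested, 0 passed edgeR's threshold and 4 passed DESeq2's, all higher, with Gbp2, Rsad2 and Usp18 among them, 12 had an unadjusted p under 0.05 with all 12 higher, and 30 had a log2 effect above 0. Over all genes, DESeq2 called 0.53% higher, and 5.24% were higher at an unadjusted p under 0.05. The libraries of 11 of the 36 stood apart upwards in both settings and of 0 downwards, beside 5.86% and 3.81% over all genes. Their median log2 effect was 0.156 beside -0.0017 over all genes. Gbp2 (gene ID 14469, chromosome 3, 142620663 to 142638008), a guanylate-binding GTPase of defence against intracellular microbes, was at 108 and 111 CPM in the controls, 148 and 138 under romidepsin, 134 and 130.5 under talazoparib and 178 and 194 under both drugs. Romidepsin libraries were above their controls in each setting, with an average log2 effect of 0.44 (SE 0.062, adjusted p = 0.104). Rsad2, which encodes the antiviral protein viperin, was at 80.6 and 71.7 CPM in the controls, 110.5 and 105 under romidepsin, 139.7 and 149.7 under talazoparib and 186 and 158 under both drugs (log2 0.38, adjusted p = 0.251). Talazoparib libraries lay above the controls for Rsad2, and the romidepsin libraries lay above their own controls in both settings. Of the 6 members below 0, the 3 with the smallest p-values were Oas2 (log2 -0.38), Mx1 (-0.12) and Oasl1 (-0.31), none with libraries apart in both settings, at adjusted p-values of 0.851 to 0.866.

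Irf8 (gene ID 15900, chromosome 8, 120736358 to 120756694) is induced by interferon gamma and encodes a transcription factor of the interferon regulatory family. It was at 102 and 100.5 CPM in the controls, 163 and 143 under romidepsin, 71.3 and 47.8 under talazoparib and 112 and 97.6 under both drugs. Talazoparib libraries were the lowest, and romidepsin libraries exceeded their controls by log2 0.60 and 0.81. The average was 0.71 (SE 0.12), with an adjusted p of 0.208 by edgeR and 4.59e-05 by DESeq2. The stretches just upstream of Gbp2 and Irf8 are shown because these genes lay higher together and each holds an interferon-type element. They are the 250 bases before the RefSeq start on GRCm38.p6, plus strand, Gbp2 at chr3:142620413-142620662 and Irf8 at chr8:120736108-120736357. Capitals mark an ISRE core (GAAA, any 2 bases, GAAA) in Gbp2, here on the minus strand, and 2 GAS cores (TTCNNNGAA) in Irf8.
Gbp2: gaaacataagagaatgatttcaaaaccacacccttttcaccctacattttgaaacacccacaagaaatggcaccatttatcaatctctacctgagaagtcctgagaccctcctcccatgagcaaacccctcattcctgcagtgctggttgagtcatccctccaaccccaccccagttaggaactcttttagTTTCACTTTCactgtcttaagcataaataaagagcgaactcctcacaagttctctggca
Irf8: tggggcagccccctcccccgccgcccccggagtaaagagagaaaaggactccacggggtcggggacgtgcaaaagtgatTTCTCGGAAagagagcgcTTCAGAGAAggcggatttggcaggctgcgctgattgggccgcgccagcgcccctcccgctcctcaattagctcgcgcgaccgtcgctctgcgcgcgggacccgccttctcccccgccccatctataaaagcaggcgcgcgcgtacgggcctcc
The ISRE core of Gbp2 begins 59 bases before the start and the GAS cores of Irf8 begin 171 and 153 bases before it. In RefSeq windows from 250 bases before to 50 after a start, searched on both strands, the ISRE core was found in 3.44% and the GAS core in 8.30% of all 32851 windows. By gene, it was found in 13 of the 25 interferon-stimulated genes that matched a window for ISRE and in 6 for GAS. Among the 548 matched genes whose libraries stood apart upwards in both settings, 4.20% held the ISRE core and 8.58% the GAS core, and among the 9536 matched of all genes tested the shares were 3.75% and 8.23%. A match describes these letters and not a bound site.

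MHC class II genes, which present antigen to helper T cells, lay higher as a group. All 9 MHC class II genes tested of 13 had a log2 effect above 0 with a median of 0.312, but Cd74 was the only call. Libraries stood apart upwards in both settings for 2 of 9, beside 5.86% over all genes. H2-Ab1, the beta chain of I-A, was at 0.539 and 0.133 CPM in the controls, 1.06 and 1.44 under romidepsin, 0.756 and 0.601 under talazoparib and 0.872 and 1.30 under both drugs (log2 1.26, adjusted p = 0.476), which is a low level. The median of all genes was also above 0 under 1 CPM (0.115) and from 1 to 10 CPM (0.0625). H2-Oa, a chain of the H2-O modulator, was at log2 0.26 (adjusted p = 0.601), with overlap in the setting with talazoparib. H2-Aa and Ciita, the master activator of the class II genes, were not among the genes tested. Of 22 MHC class I presentation genes, 0 passed, 3 had an unadjusted p under 0.05, all higher (5.24% over all genes), and the median was 0.0655.

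Cytokine and receptor genes lay on both sides, most of them above 0. Of 35 tested, 0 passed edgeR's threshold, 3 passed DESeq2's (Ifng, Cxcr6 and Ccr7) and 28 were above 0, with a median of 0.0910. DESeq2 called 0.53% of all genes higher. The libraries of 6 of the 35 stood apart upwards and of 1 downwards, beside 5.86% and 3.81% over all genes. Cxcr6, the receptor of the chemokine Cxcl16, was at 27.5 and 23.4 CPM in the controls, 36.4 and 37.9 under romidepsin, 34.6 and 41.2 under talazoparib and 53 and 56.6 under both drugs (log2 0.54, adjusted p = 0.175). Ccr7, which guides T cells to lymph nodes, was at 16.1 and 14.1 CPM in the controls, 23.4 and 21.5 under romidepsin, 27.6 and 25.4 under talazoparib and 32.8 and 31.9 under both drugs (log2 0.43, adjusted p = 0.220). Both lay above their controls in each setting with no overlap. On the lower side were Il16 (log2 -0.16), the gut-homing receptor Ccr9 (-0.31) and the interleukin-7 receptor Il7r (-0.36), with adjusted p of 0.602 to 0.753. Costimulatory and inhibitory receptors (22 tested, 0 passed) had 5 members apart upwards and 1 downwards, beside 5.86% and 3.81% over all genes. Among these Cd274, which encodes PD-L1, was at 19.7 and 20.1 CPM in the controls, 24.9 and 30.9 under romidepsin, 27.3 and 20.1 under talazoparib and 31.9 and 27.4 under both drugs (log2 0.41, adjusted p = 0.476), the activation marker Cd69 had log2 0.50 (adjusted p = 0.499) and the adhesion receptor Cd96 -0.34 (adjusted p = 0.435).

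Immediate early genes and feedback regulators of the ERK kinases, which switch on within minutes of growth signals, had a median log2 effect of 0.378 over 24 genes tested, 22 of them above 0. Within the settings the medians were lower, 0.301 without talazoparib and 0.206 with it. None passed edgeR's threshold, 1 passed DESeq2's, 6 had an unadjusted p under 0.05, all higher (5.24% over all genes), and 7 stood apart upwards in both settings and 0 downwards, beside 5.86% and 3.81% over all genes. Dusp6 (gene ID 67603, chromosome 10, 99263231 to 99267489), the phosphatase that inactivates ERK, was at 51.4 and 48.8 CPM in the controls, 61.6 and 60.5 under romidepsin, 57.0 and 54.4 under talazoparib and 80.0 and 82.7 under both drugs. Romidepsin libraries were higher in each setting, and the average log2 effect was 0.42 (SE 0.058, adjusted p = 0.1002). Spry1, an inhibitor of receptor tyrosine kinase signalling, had log2 0.62 (adjusted p = 0.314), and Dusp5, a nuclear ERK phosphatase, 0.86 (adjusted p = 0.367). Dusp5 was at 0.647 and 0.664 CPM in the controls, 1.54 and 1.39 under romidepsin, 1.64 and 1.37 under talazoparib and 2.74 and 1.76 under both drugs. Dusp5 lies in the range of 1 to 10 CPM, where the median of all genes was also above 0.

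**Figure D3:**
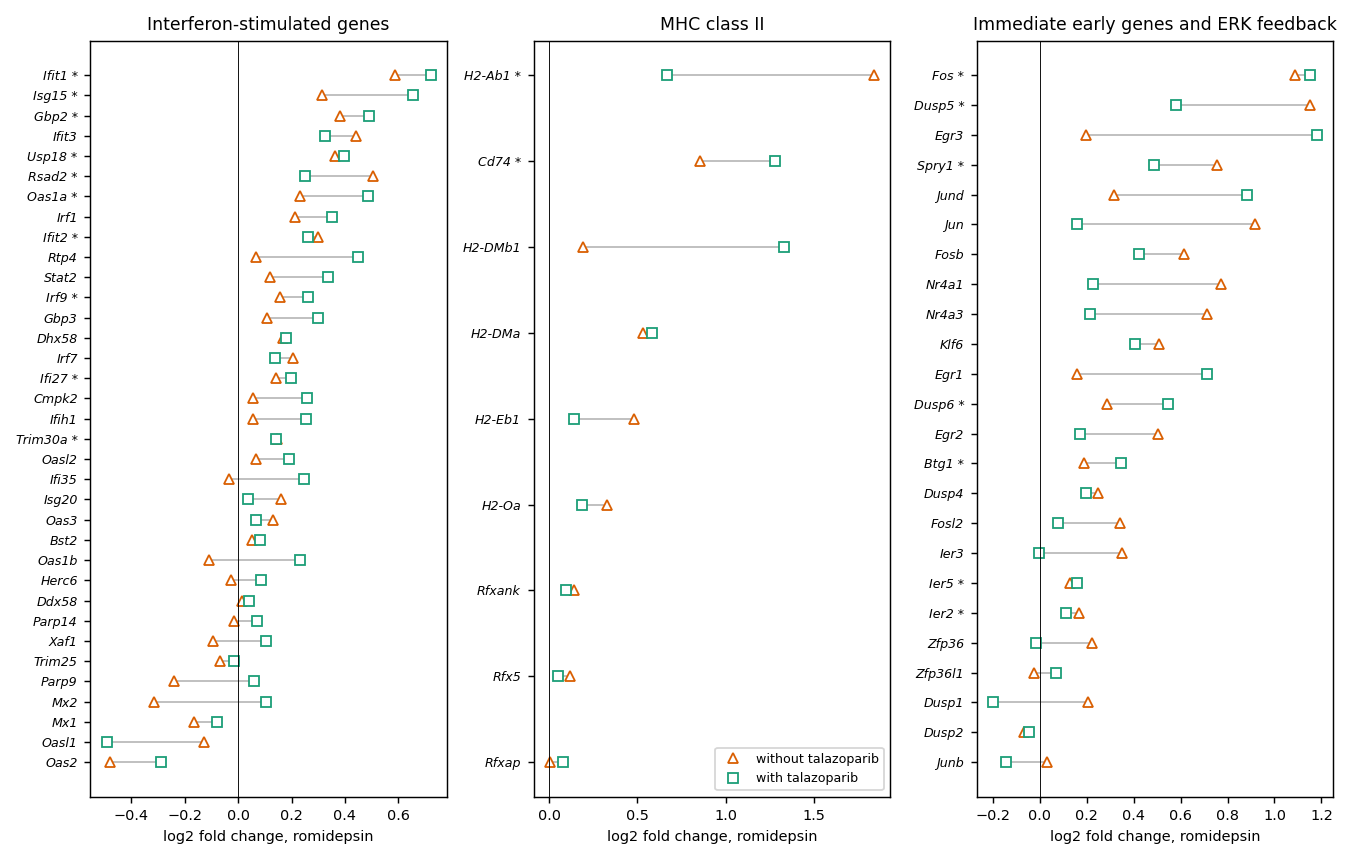
Log2 effect of romidepsin for genes tested of 3 lists, without talazoparib (triangles) and with it (squares), joined by a line. An asterisk marks genes whose romidepsin libraries lay above both controls in each setting (5.86% over all genes), 2 of 9 MHC class II genes and 7 of 24 immediate early genes among them. Most interferon-stimulated genes drawn lie above 0.

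Transcripts of the deacetylases themselves, the sirtuins included, showed no detectable change. Of 17 histone deacetylase genes tested of 18, 0 passed by either tool, 0 had an unadjusted p under 0.05 and 0 had libraries apart in both settings, and log2 effects ran from -0.154 (Hdac7) to 0.134 (Hdac5). The class I genes were Hdac1 at log2 0.059 (95% interval -0.11 to 0.23), Hdac2 at 0.00091 (95% interval -0.13 to 0.14), Hdac3 at -0.013 (95% interval -0.15 to 0.12) and Hdac8 at -0.093 (95% interval -0.34 to 0.15). The direction of Hdac2 and of Hdac3 changed with the scaling (-0.0017 by RLE factors for Hdac2 and 0.0020 by upper-quartile factors for Hdac3). Hdac1, the highest of the 4 in reads, was at 329 and 352 CPM in the controls, 354 and 315 under romidepsin, 338 and 389 under talazoparib and 385 and 418 under both drugs, with overlap throughout. These transcript levels say nothing of enzyme activity or histone acetylation, which were not measured.

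Of 24 genes often induced by deacetylase inhibitors in other cells, 18 were tested and 17 had a log2 effect above 0, with a median of 0.228 beside -0.0017 over all genes. None passed edgeR's threshold, 1 passed DESeq2's (Syt11), 6 had an unadjusted p under 0.05, all higher, and 5 stood apart upwards in both settings. Over all genes, 0.53% were called higher by DESeq2, 5.24% were higher at an unadjusted p under 0.05 and 5.86% stood apart upwards. The medians of the list were 0.243 without talazoparib and 0.229 with it. H1f0 (gene ID 14958, chromosome 15, 79028212 to 79030504) was at 269 and 248 CPM in the controls, 348 and 320.5 under romidepsin, 127 and 87.2 under talazoparib and 131 and 124 under both drugs. Romidepsin alone exceeded control, but the combination overlapped talazoparib, which on its own was far below control, and the average effect was 0.31 (95% interval 0.054 to 0.57), adjusted p = 0.569. Gadd45a, a growth arrest gene, was at 119.8 and 96.8 CPM in the controls, 132 and 168 under romidepsin, 198 and 146 under talazoparib and 225 and 209 under both drugs with no overlap in either setting. Its average effect was log2 0.40 (95% interval 0.11 to 0.69), adjusted p = 0.499. Crip1, a small LIM protein, was at log2 0.21 (95% interval 0.078 to 0.34), adjusted p = 0.403.

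Cdkn1a was at 19.3 and 17.7 CPM in the controls, 19.0 and 23.1 under romidepsin, 138 and 114 under talazoparib and 146 and 148 under both drugs. The talazoparib libraries were far above the controls, and the romidepsin effect was log2 0.20 (95% interval -0.0045 to 0.41), adjusted p = 0.685. Txnip, the thioredoxin-binding protein, had log2 0.18 (95% interval -0.047 to 0.41) and adjusted p = 0.785, and Cdkn1b, which encodes p27, -0.0027, a value whose sign turned with the scaling (0.010 by upper-quartile factors). Myc was at log2 0.091 (95% interval -0.15 to 0.33) and the proliferation gene Mki67 at -0.016 (95% interval -0.20 to 0.17). The efflux pump genes were Abcb1b at 0.028 (95% interval -0.13 to 0.19) and Abcb1a at 0.43 (95% interval -1.26 to 2.13). Abcb1a was too scattered to judge, with 0.350 and 0.233 CPM in the controls, 0.658 and 0.625 under romidepsin, 0.945 and 6.37 under talazoparib and 1.08 and 5.14 under both drugs.

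**Figure D4:**
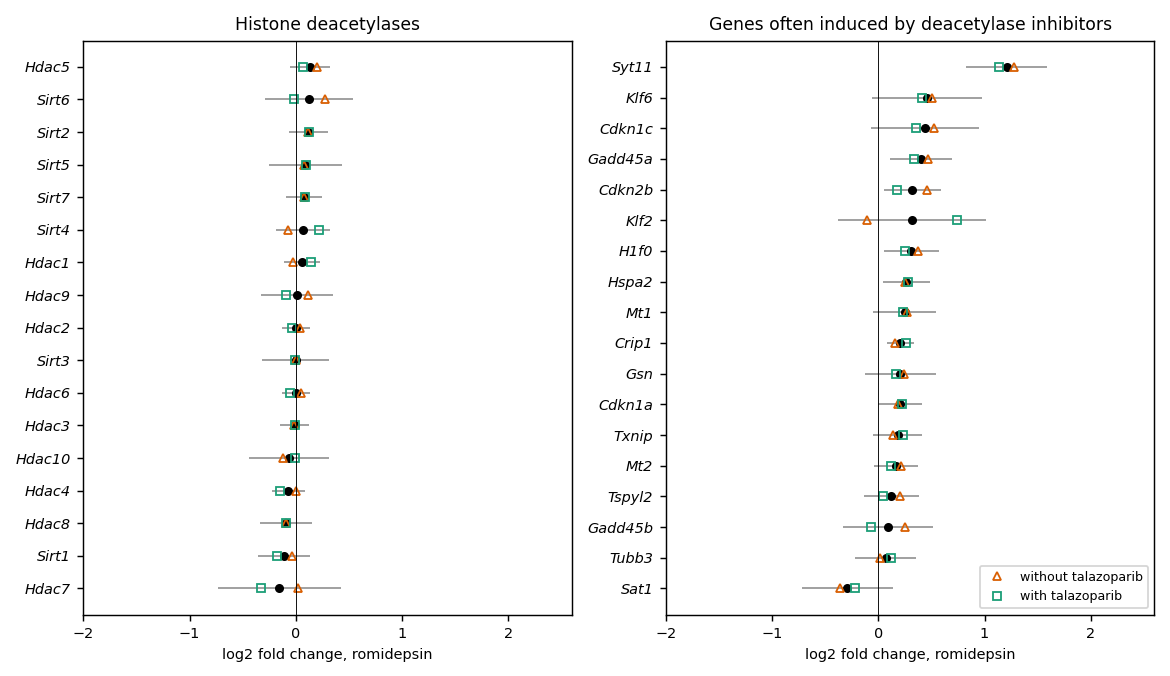
Log2 effect of romidepsin averaged over both settings (black, with 95% interval), without talazoparib (triangles) and with it (squares), for 17 histone deacetylase genes and 18 genes often induced by deacetylase inhibitors. The deacetylase genes scatter around 0 between -0.154 and 0.134, and 17 of the 18 genes on the right lie above 0, with Syt11 the highest.

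Chromatin partners had medians slightly below 0. Of 33 subunits of the corepressor complexes in which class I deacetylases work, 25 were below 0 (median -0.0415); 0 passed, 3 had an unadjusted p under 0.05, all lower (2.1% over all genes), and 4 stood apart downwards against 1 upwards (3.81% and 5.86% over all genes). Chd3, a remodeller of the NuRD complex, was at 291 and 307 CPM in the controls, 237 and 278 under romidepsin, 279 and 282 under talazoparib and 224 and 191 under both drugs (log2 -0.32, adjusted p = 0.316), Mbd3, a further NuRD subunit, had log2 -0.24 (adjusted p = 0.345) and Ing1 of the Sin3 complex -0.17 (adjusted p = 0.581). All 3 had romidepsin libraries below their controls in each setting. Of 22 acetyltransferase and bromodomain genes, 17 were below 0 (median -0.066); 0 passed, 4 had an unadjusted p under 0.05, all lower, and 4 stood apart downwards. Examples were Brpf3 (log2 -0.28, adjusted p = 0.577), Brpf1 (-0.15, 0.614), both scaffolds of MOZ-type acetyltransferases, and the acetyltransferase Kat2b (-0.15, 0.652).

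Growth and genome maintenance genes showed small effects below 0. Over 42 DNA replication genes the median was -0.0566, with 33 below 0, 0 called and 5 apart downwards in both settings (3.81% over all genes). Mcm4, a subunit of the replicative helicase, was at 426 and 427 CPM in the controls, 391 and 378 under romidepsin, 384 and 384 under talazoparib and 362 and 365 under both drugs (log2 -0.11, adjusted p = 0.695), and Orc2, of the origin recognition complex, had log2 -0.26 (adjusted p = 0.651), with overlap in the setting with talazoparib. Over 30 Myc and ribosome biogenesis genes the median was -0.137, at -0.233 without talazoparib and -0.02 with it, and 1 gene stood apart downwards in both settings, the nucleolar chaperone Npm1 (log2 -0.14, adjusted p = 0.676), against 1 upwards. Homologous recombination and Fanconi genes (34 tested, median -0.0702) and mitosis genes (33, median -0.0223) had 0 calls. In both settings 2 and 4 of them stood apart downwards and 0 upwards, beside 3.81% and 5.86% over all genes. Most members of these lists lie over 10 CPM, where the median of all genes was also below 0.

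Most lists of stress and cell death had medians near that of all genes. p53 targets (28 tested) had a median of 0.00102 and 0 calls, and the BCL2 family (14) 0.0335 and 0. Death receptors and caspases (23) had 0.00182 and 0, and the integrated stress and unfolded protein response (31) 0.0111 and 0. Of the p53 targets, 3 stood apart upwards and 0 downwards in both settings (5.86% and 3.81% over all genes). Heat shock chaperones (19 tested) had 0 calls and a median of -0.0586, with 5 above 0. Their median was -0.128 without talazoparib and 0.0122 with it. NF-kB subunits and targets (17) had a median of 0.0113 and 0 calls, with the adhesion gene Icam1 apart upwards in both settings and 2 members downwards (Icam1 log2 0.27, adjusted p = 0.294). Over all genes 5.86% stood apart upwards and 3.81% downwards. Neuronal genes, which repressor complexes with deacetylases silence outside the nervous system, were tested for 13 of 31. Of these, 4 stood apart upwards (5.86% over all genes), and the median was 0.135 beside -0.0017 over all genes. Syt11 was the 1 call by DESeq2, the same gene as in the list of genes often induced by deacetylase inhibitors. Syt11 lies in the range of 1 to 10 CPM, where the median of all genes was 0.0625 and 10.1% stood apart upwards. The part of level in the values of this list was not tested. Uchl1, a ubiquitin hydrolase, had log2 0.24 (adjusted p = 0.352). Among tubulins, actins and their binding proteins (31 tested, median 0.0427) Tmsb4x, which binds monomeric actin, had log2 0.34 (adjusted p = 0.251 by edgeR, 0.0145 by DESeq2). Only 4 of 22 germ-cell genes were tested, with 0 calls.

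Lists of T-cell identity, metabolism and repair had no call apart from Fam134c. T-cell receptor and proximal signalling genes (25 tested) had a median log2 effect of -0.00522 with 2 members apart upwards and 3 downwards in both settings, beside 5.86% and 3.81% over all genes, and T-lineage transcription factors (29) had 0.0265 with 2 and 2. Cholesterol and fatty acid synthesis genes (34) had a median of 0.0745, glycolysis genes (26) 0.0541 and NRF2 targets and metallothioneins (24) 0.0589, with 1, 1 and 3 members apart upwards and 0 downwards. PARP family and single-strand break repair genes (32) had a median of -0.0366, linker and variant histones (13) 0.12, CDK inhibitors (8) 0.166 and ABC drug transporters (17) 0.0402. These lists held 0 calls by edgeR and 0 by DESeq2. Among 38 genes of autophagy, ER-phagy and lysosome the median was 0.049, and Fam134c was the 1 call.

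**Figure D5:**
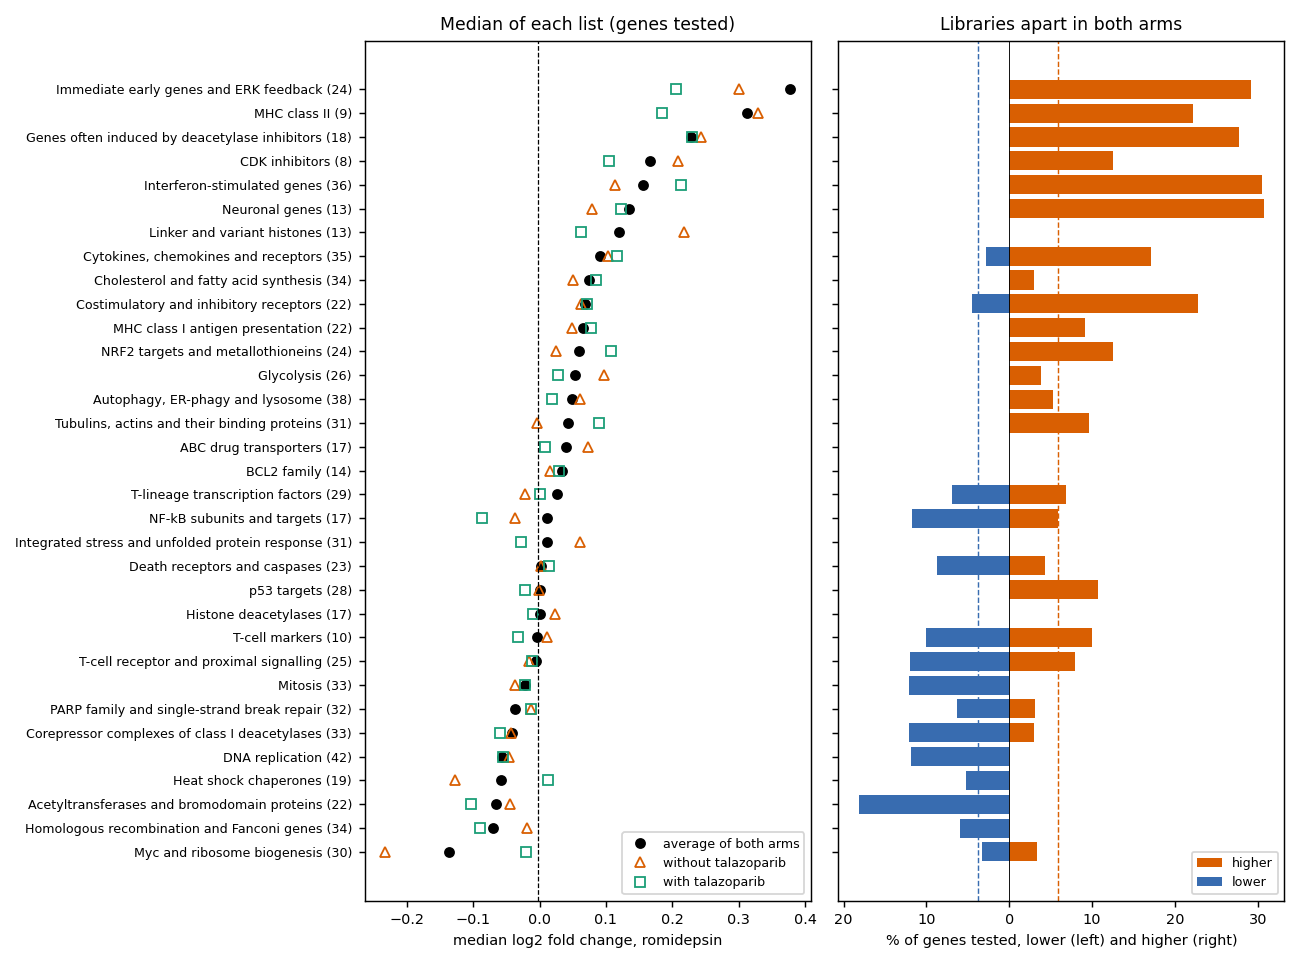
Left, median log2 effect of romidepsin over the genes tested of each list with at least 5, averaged over both settings (dots), without talazoparib (triangles) and with it (squares); the dashed line is the median of all 11934 genes, -0.0017. Right, share of each list whose romidepsin libraries lay above (orange) or below (blue) both controls in each setting, with the shares of all genes, 5.86% and 3.81%, dashed. For the average, immediate early genes have the highest median (0.378) and Myc and ribosome biogenesis the lowest (-0.137) of the lists drawn. The order differs within the settings, where MHC class II is at 0.329 without talazoparib and the Myc list at -0.02 with it.

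Markers of other cell types were also measured. Of 8 myeloid markers 4 were tested, and their summed level was 20.5 and 18.3 CPM in the controls, 23.5 and 26.6 under romidepsin, 46.1 and 39.7 under talazoparib and 54.4 and 51.4 under both drugs, higher with romidepsin in each setting. Itgam (CD11b) was at 3.53 and 5.02 CPM in the controls, 7.57 and 6.91 under romidepsin, 11.8 and 14.1 under talazoparib and 21.8 and 22.02 under both drugs (log2 0.76, adjusted p = 0.204 by edgeR, 0.000227 by DESeq2) and Lyz2 at log2 0.50 (adjusted p = 0.244), while Csf1r, Adgre1, Cd14 and Fcgr3 were not among the genes tested. On average 3 of the 4 tested myeloid markers lay above 0, with log2 effects from -0.129 to 0.761. Cebpb and Cd68, also tested, changed sign between the settings when each setting was fitted alone. Cebpb was at log2 -0.53 without talazoparib and 0.27 with it, and Cd68 at 0.22 and -0.16. Most class II and interferon genes above lay in the same direction as Itgam and Lyz2, and the markers' part in those results was not tested. Summed levels were 34.7 to 37.2 CPM without and 50.8 to 58.0 CPM with talazoparib for B-cell markers (2 of 6 tested), 195 to 260 CPM over all libraries for fibroblast markers (4 of 7) and 4.74 to 7.58 CPM for erythroid markers (2 of 5). In bulk RNA, a change in the number of cells of a type cannot be told apart from a change in RNA per cell. The ribosomal RNA gene Rn45s took 0.520% and 0.394% of the reads of the talazoparib libraries and 0.135% to 0.235% of the other 6, so that the setting with talazoparib compares libraries that differ in it (log2 -1.38 there, 0.28 without talazoparib); its part in the results was not tested.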

How the data were processed

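RNA of 8 libraries (2 per group) was sequenced after TRIzol extraction and TruSeq Stranded mRNA preparation, per the labels. HISAT2, StringTie and the build mm10 are named in the submitters' processing notes, with versions not given in the sources used here. The authors deposited 1 table holding raw read counts, FPKM values and log2 normalised counts per gene, beside signed fold values (a score) and adjusted p-values of their comparisons, per the file headers. Each listed gene has at least 1 read in every library, and genes without reads in 1 or more libraries are not analysed here. Deposited counts were tested with edgeR 4.0.16 in R 4.3.3 (filterByExpr at its minimum count of 10, TMM, 1 term per group, 4 residual degrees of freedom, biological coefficient of variation 12.9%). The main contrast averages romidepsin minus control and combination minus talazoparib. Standard errors and 95% intervals derive from the quasi-likelihood F statistic. DESeq2 1.42.0 and limma 3.58.1, on log2(FPKM + 1) for genes with a mean of at least 0.5 FPKM, were alternatives. The edgeR and DESeq2 fits of the average effect were tested on simulated data. On the log2(FPKM + 1) scale changes of low genes are understated.

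The genes and 38 lists described were chosen with earlier results of these data known. The rule for named genes was the 15 largest rises and falls with an adjusted p under 0.05, at least 2 FPKM and no overlap within either setting, which only Cd74 met. Calls on the interaction, up to 3 members per list and direction, and 12 genes named whatever their values were added, and the genes of small p named as such were chosen after their values were seen. Promoter sequences and positions are RefSeq's on GRCm38.p6. Some genes overlap others, and reads of near-identical copies may have been split by the authors' counting. A gene counted in the list summaries is not reported here by itself.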

Additional observations from a re-analysis of the deposited data

Results flagged for a closer look

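For 2 genes the effect of romidepsin differed between the settings by edgeR's interaction test. The log2 effect with talazoparib minus that without was -4.64 for Mdm4 (adjusted p = 0.00105; higher than control in 2 of 2 romidepsin libraries and lower than talazoparib in 2 of 2 combination libraries). It was -1.79 for Fam134c (adjusted p = 0.0159; lower than talazoparib in 2 of 2 combination libraries, overlapping without talazoparib). The part of read assignment in these deposited gene-level counts was not tested. The average effect of romidepsin describes neither setting for these genes. With 2 libraries per group, no single library could be tested as standing apart from its group.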

How the results depend on the processing

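The count of genes called on the average (3) stayed at 3 with RLE or upper-quartile factors, no filter or a robust prior. It was 81 by DESeq2, 110 by edgeR's likelihood ratio test (added after the data were seen, as were limma-voom and the swapped numbering), and 0 by limma on log2(FPKM + 1) and on log2(FPKM + 0.1) and in an additive model. Leaving out 1 library gave 0 to 7 calls. For the effect without talazoparib (3 calls) the count was 8 by DESeq2, 12 by the likelihood ratio test, 0 by both limma fits and 0 to 10 without 1 library. For the effect with talazoparib (3 calls) it was 26 by DESeq2, 36 by the likelihood ratio test, 5 with the robust prior and 0 to 9 without 1 library. For the interaction (2 calls) it was 7 by DESeq2 and by the likelihood ratio test, 1 by limma on log2(FPKM + 0.1) and 1 to 8 without 1 library. The causes were not tested. Same-numbered libraries did not deviate together in every pair of groups (correlations of -0.333 to 0.287, negative in the 3 pairs with romidepsin and positive in the other 3), so the numbers were not taken to pair the samples. With the replicate block, calls were 0 on the average and without talazoparib, 2 with talazoparib and 1 for the interaction. With the romidepsin numbers swapped, calls were 12, 3, 7 and 2.

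The results followed were the average effects of 67 genes and the interactions of Mdm4 and Fam134c. Of these results, 62 kept their sign in every setting tried, and 7, all average effects, turned in at least 1. Cdkn1b turned from -0.0027 to 0.010 (upper quartile), 0.013 (replicate block), 0.014 and 0.015 (limma), 0.011 (voom) and 0.0084 (swapped numbers), and ran from -0.14 to 0.17 without single libraries. Hdac2 turned from 0.00091 to -0.0017 (RLE) and -0.0010 (DESeq2), and ran from -0.023 to 0.017 without single libraries. Hdac3 turned to 0.0020 (upper quartile) and ran from -0.034 to 0.0093. Without single libraries Mki67 ran from -0.087 to 0.062, Abcb1b from -0.028 to 0.071, Abcb1a from -0.32 to 1.41 and Hdac7 from -0.37 to 0.16. The median SE was 0.377 under 1 CPM and 0.0718 over 100 CPM, so differences of weakly expressed genes are the least precise.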
